A study of Rattus norvegicus with 16 samples.

Results

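Potassium channel subunit genes were taken as all genes whose symbol begins with Kcn followed by a lower-case letter. This gave 94 of the 21021 genes listed, and 73 of them had a mean of at least 1 FPKM in some group and were described and tested. FPKM counts fragments per length of transcript and per size of library, so that levels of different genes can be set side by side. The other 21 members lay below 1 FPKM in all group means and were only counted, apart from those the study itself lists among ion channel genes. Of these 21, 20 lay below 1 FPKM in each of the 14 samples used, 14 below 0.5 and 4 below 0.1.

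RNA came from dorsal root ganglia (DRGs) at L3–L5 in adult female Sprague-Dawley rats, where the ganglia of the operated side of 1 rat were pooled as 1 sample. Walker 256 rat mammary carcinoma cells had been put into the left tibia (tumor cell implantation, TCI) and DRGs were taken 1, 7 or 14 days later, with 4 samples a day. The 4 sham samples date from day 14 only, so that on days 1 and 7 the treatment and the time since surgery cannot be told apart. The labels describe the sham injection as PBS, and the methods as boiled tumor cells. The study's text leaves out TCI day 1 replicate 2 and TCI day 7 replicate 3, and means, SDs and tests below are over the other 14 samples (sham n = 4, day 1 n = 3, day 7 n = 3, day 14 n = 4).

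Potassium channels let potassium leave the cell, which holds the resting potential of sensory neurons, ends their action potentials and limits repetitive firing. Voltage-gated Kv and KCNQ channels open on depolarization, inward rectifiers (Kir) and tandem-pore K2P channels carry current near rest, and calcium- or sodium-activated channels follow ion entry. In the ganglion the satellite glia that wrap each neuron take up potassium through Kir channels. Auxiliary subunits do not form the pore but change the gating or traffic of the channels they join.

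Promoter sequences are shown for 3 members that stand for the main patterns, a glial inward rectifier and a neuronal Kv subunit that were lower after TCI, and an inward rectifier that was higher. They run from 250 bases before to 50 bases after the start of the gene in RefSeq (build GRCr8, 5′ to 3′ on the strand of the gene). Capitals mark matches on either strand to any of 6 short motifs. The TATA box was searched as the letters TATAAA. The GC box, a site of Sp factors, was searched as GGGCGG. The core of ETS factors was searched as GAGGAA, and that of SOX factors, which include glial regulators, as ACAAAG. The GAS element of STAT factors was searched as TTCNNNGAA and the CRE of cyclic AMP signalling as TGACGTCA. No match overlapped another in these windows.
Kcnj10, chr13:87334260-87334559, plus strand: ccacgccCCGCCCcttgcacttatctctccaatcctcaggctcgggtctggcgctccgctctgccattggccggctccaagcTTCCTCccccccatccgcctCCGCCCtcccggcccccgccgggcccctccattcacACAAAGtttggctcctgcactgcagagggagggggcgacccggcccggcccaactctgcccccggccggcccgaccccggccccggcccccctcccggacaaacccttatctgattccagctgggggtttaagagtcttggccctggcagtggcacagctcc
Kcna2, chr2:197393280-197393579, plus strand: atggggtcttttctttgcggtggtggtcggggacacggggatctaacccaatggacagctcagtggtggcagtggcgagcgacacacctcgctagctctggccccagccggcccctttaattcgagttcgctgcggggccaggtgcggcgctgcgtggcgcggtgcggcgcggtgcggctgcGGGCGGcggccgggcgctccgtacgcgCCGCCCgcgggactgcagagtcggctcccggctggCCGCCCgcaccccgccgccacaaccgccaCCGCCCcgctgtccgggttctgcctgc
Kcnj13, chr9:95518937-95519236, minus strand: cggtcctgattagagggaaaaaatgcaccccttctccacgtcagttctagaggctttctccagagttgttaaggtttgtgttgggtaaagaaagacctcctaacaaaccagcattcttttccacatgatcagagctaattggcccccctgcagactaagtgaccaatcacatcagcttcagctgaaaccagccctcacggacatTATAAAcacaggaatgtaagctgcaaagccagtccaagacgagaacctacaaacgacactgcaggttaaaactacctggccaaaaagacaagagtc
The Kcnj10 window held 2 GC boxes, 1 ETS core and 1 SOX core, the Kcna2 window 4 GC boxes, and the Kcnj13 window 1 TATA box. GC made up 70.3% of the Kcnj10 window, 73.3% of the Kcna2 window and 46.3% of the Kcnj13 window, against a median of 51.7% over 33469 promoters of the same length. The GC box was found in 33.1% of these promoters, the ETS core in 27.6%, the SOX core in 18.8%, the TATA box in 14.2%, the GAS in 8.87% and the CRE in 1.83%. Of the 53 promoters listed for 48 of the described members, 58.5% held a GC box and 1.89% a TATA box. These matches are a description of the letters only. The promoter of Kcnk6 is not shown.

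The family was led by Kv and auxiliary subunits. In sham DRGs the FPKM of all 94 members summed to 1279 ± 34.5 (SD, n = 4), and Kcnab2, a cytoplasmic beta subunit of Kv1 channels, alone held 20% of this sum with 255 ± 3.98 FPKM. It was followed by Kcna1 (Kv1.1) at 88.1 ± 8.95 FPKM, Kcnip3, a calcium-binding partner of Kv4 channels, at 75.7 ± 3.97 FPKM (named after its value was seen), Kcnd1 (Kv4.1) at 71.1 ± 2.20 FPKM and Kcna2 (Kv1.2) at 66.2 ± 5.24 FPKM. These 5 genes made up 43.5% of the sum and the 10 highest 58.8%. A further 21 members lay between 10 and 50 FPKM, 41 between 1 and 10 FPKM and 6 of the described members below 1 FPKM in sham. The sums of the used samples ranged from 1235 to 1311 in sham. They ranged from 1196 to 1233 (day 1), 1157 to 1187 (day 7) and 1141 to 1252 (day 14) after TCI. Day 1 and day 7 lay below all sham samples, and day 14 overlapped them.

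A minority of members passed against sham on days 7 and 14, and none on day 1. On day 1, 0 of the 73 members passed an adjusted p of 0.05 in either direction, where limma likewise called 0% of all 14023 tested genes higher and 0% lower. An unadjusted p under 0.05 was reached by 6 members, all lower (Kcna6, Kcna4, Kcnab1, Kcnc4, Kcnq5 and Kcnj3), which is 8.22% of members against 5.23% of all genes. The smallest adjusted p (limma, Benjamini-Hochberg) was 0.793, for Kcna6. On day 7, 6 members were higher and 8 lower, beside 14.5% of all genes higher and 3.45% lower. On day 14, 5 were higher and 5 lower, beside 11.9% of all genes higher and 3.21% lower. Of the 73 members, 8.22% were higher on day 7 and 6.85% on day 14, below the share of all genes, and 11% and 6.85% were lower, above it. An unadjusted p under 0.05 was reached by 31 members on day 7, or 42.5% beside 31.2% of all genes. On day 14 it was reached by 18, or 24.7% beside 29.9%. These shares were not compared by a test, and the comparisons with sham share the same 4 sham samples.

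Differences from sham were negative for 50 of the 73 members on day 1, 43 on day 7 and 50 on day 14, while 49.7%, 39.7% and 43.6% of all genes were below 0. The median member differed from sham by -0.05 on the log2(FPKM + 1) scale on days 1, 7 and 14, and the median gene by 0.00, 0.04 and 0.03. The split between higher and lower depended on the scaling of the samples. Quantile normalization moved the median of all genes on day 7 from 0.04 to -0.07 and gave 2 members higher and 27 lower, beside 9.56% of all genes higher and 16.5% lower. Scaling by the median of ratios gave 5 and 17 members (11.1% and 8.12% of all genes), and equal sums gave 5 and 15 (10.9% and 6.72%). On day 14 quantile normalization gave 2 higher and 15 lower (7.85% and 11%), the median of ratios 3 and 8 (9.26% and 6.44%) and equal sums 4 and 5 (9.19% and 5.27%). The 8 members called lower on day 7 and the 5 on day 14 were among the lower calls under each scaling. The study's cut-offs were an absolute log2 fold change from 1 upward with an adjusted p up to 0.001. Applied to differences in log2(FPKM + 1), they passed 0 members on either day. Of all genes, 1.83% passed as higher and 0% as lower on day 7, and 0.642% and 0% on day 14. This scale shrinks the fold changes of low genes, and the study took its fold changes from another method. The 0 therefore does not repeat the study's own criterion. Groups did not overlap for 11 members higher and 21 lower on day 7, where all genes gave 23.8% and 10.1%, and for 5 higher and 9 lower on day 14, where all genes gave 13.8% and 5.38%.

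**Figure D1:**
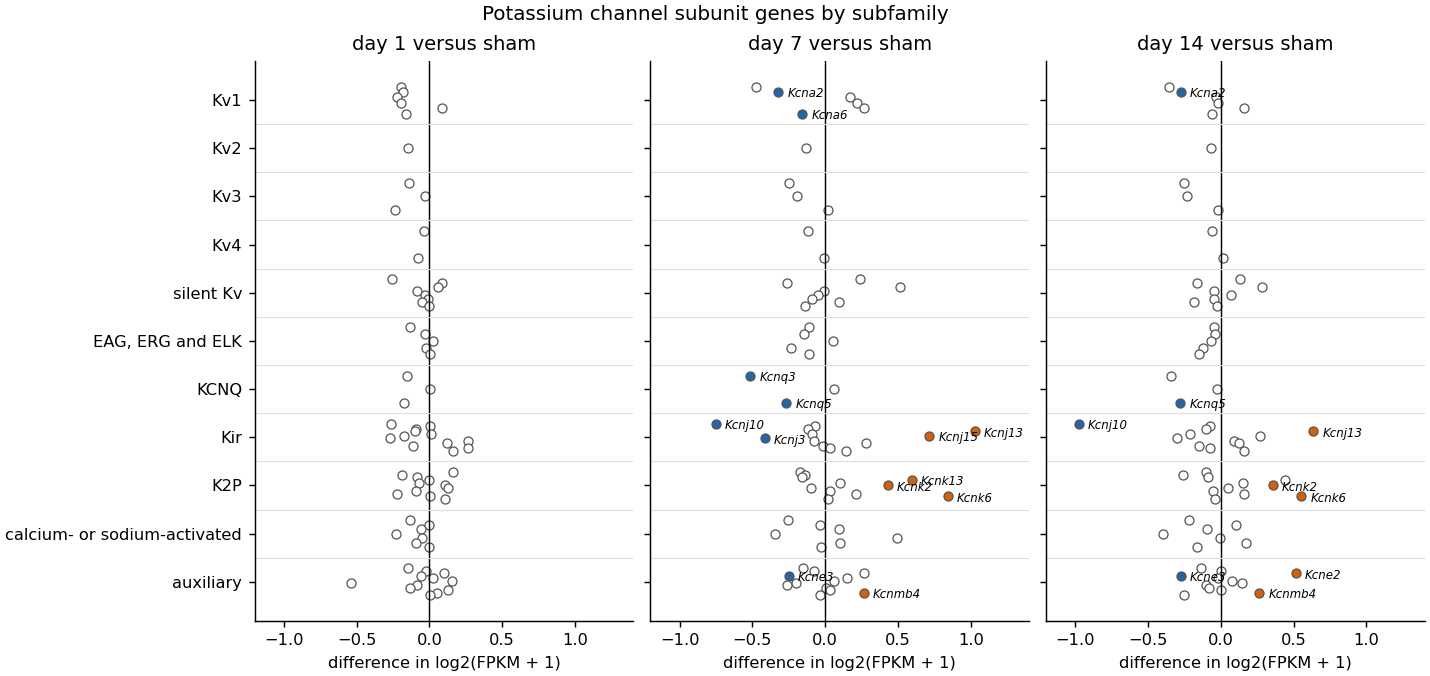
Difference from sham in log2(FPKM + 1) for 70 of the 73 described members, 1 point each, by subfamily and day. Orange points were higher and blue points lower at an adjusted p of at most 0.05, white points did not pass; no point is filled on day 1, and the widest spread is among the Kir genes on days 7 and 14.

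The members that passed differed in level as well as in direction. The 8 lower members had sham means from 2.96 to 66.2 FPKM with a median of 20.8. The 7 higher members had sham means from 0.35 to 8.36 FPKM with a median of 0.90. Of the latter, Kcne2, Kcnj13, Kcnj15 and Kcnk13 reached the filter of 1 FPKM in 3 samples only with the samples of days 7 and 14. Such genes could enter the test only because they were high there.

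The marker genes of the cell types of the ganglion moved over the same days and stand beside all results that follow. All 12 macrophage markers were higher on day 7 and 10 on day 14, and their summed level was 35.2 to 61.6 FPKM in sham, 372 to 499 on day 7 and 188 to 674 on day 14. All 8 tested of 11 T cell markers were higher on both days, with sums of 5.83 to 8.82 FPKM in sham, 42.4 to 98.3 on day 7 and 34.5 to 101 on day 14, and Cd3d, Cd3e, Cd5, Cd8a and Cd8b were at 0 in some sample. Of the 12 neuron markers 5 were lower on each day and 0 higher, with sums of 18052 to 18982 FPKM in sham, 15131 to 15933 on day 7 and 14839 to 17709 on day 14. Of the 8 satellite glia markers 1 was higher and 0 lower on day 7 and 2 were lower on day 14, with sums of 3876 to 4347, 3657 to 4289 and 3522 to 3826 FPKM. Of the 8 Schwann cell markers 0 passed on any day, with sums of 8387 to 11249 FPKM in sham, 6883 to 8553 on day 7 and 7129 to 10998 on day 14. Endothelial markers were higher for 2 of 8 and mural cell markers for 2 of 7 on day 7, and 0 of either on day 14. Under the other scalings 6 to 8 neuron markers were lower on day 7 and 5 to 7 on day 14, 3 to 5 satellite glia markers were lower on day 14, and 1 or 2 Schwann cell markers were lower on day 7. No neuron, satellite glia, Schwann cell or macrophage marker was at 0 in any sample. In RNA from whole ganglia, fewer cells of a type and less RNA per cell cannot be told apart, and the part of these markers in the results below was not tested.

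The inward rectifiers held the widest changes of the family, in both directions. Of 15 Kir genes 12 were tested, and on day 7 Kcnj10 and Kcnj3 fell while Kcnj13 and Kcnj15 rose. Kcnj10 encodes Kir4.1, the main glial channel for potassium uptake, and had the highest level of the Kir genes here. It was at 35.03, 33.13, 32.06 and 37.46 FPKM in the sham samples, at 31.00, 27.39 and 27.14 FPKM on day 1, at 20.93, 23.21 and 16.52 FPKM on day 7 and at 19.93, 17.15, 10.34 and 23.32 FPKM on day 14. All samples of days 7 and 14 lay below all sham and day 1 samples, and the day 1 samples lay below all sham samples. The ratio of group means to sham was 0.587 on day 7 and 0.514 on day 14. On the log2(FPKM + 1) scale it fell by 0.75 ± 0.20 (SE) on day 7 (limma, adjusted p = 0.0187) and by 0.97 ± 0.18 on day 14 (adjusted p = 0.00417). The day 1 difference of -0.26 ± 0.20 did not pass (adjusted p = 0.974). Day 14 differed from day 1 by -0.71 ± 0.20 (adjusted p = 0.0480), but this call depended on the samples and settings. Among other alternatives, it was lost with all 16 samples, under equal sums and with the replicate block. Leaving out any 1 day 1 sample or any 1 sham sample also removed it. It was kept under quantile normalization and the median of ratios. Without TCI day 7 replicate 4, the lowest of its day, the day 7 difference from sham did not pass (adjusted p = 0.0842). The day 14 difference from sham passed under each alternative tried.

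The satellite glia markers differed less from sham than Kcnj10 did. The 8 markers had a median difference of -0.05 on day 7 and -0.26 on day 14 on the log2(FPKM + 1) scale. Glul, the glutamine synthetase of satellite glia, rose by 0.44 ± 0.11 on day 7 (limma, adjusted p = 0.0148), and the gap junction gene Gja1 differed by 0.10 ± 0.10 on day 7 (adjusted p = 0.534) and -0.26 ± 0.09 on day 14 (adjusted p = 0.0680). On day 14 the cadherin gene Cdh19 fell by 0.26 ± 0.08 (adjusted p = 0.0404) and Hmgcs1, an enzyme of cholesterol synthesis, by 0.36 ± 0.11 (adjusted p = 0.0470). Among the neuron markers, the neurofilament gene Nefh fell by 0.30 ± 0.06 on day 7 (adjusted p = 0.00423) and 0.27 ± 0.06 on day 14 (adjusted p = 0.00679). The difference between Kcnj10 and these markers was not tested.

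**Figure D2:**
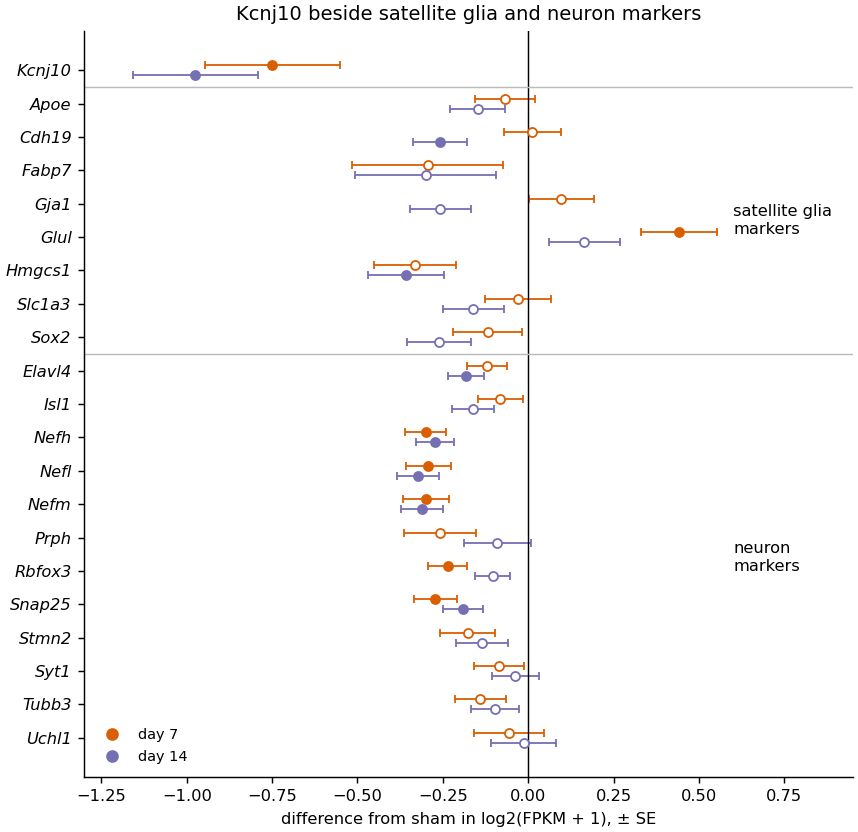
Difference from sham in log2(FPKM + 1) on day 7 (orange) and day 14 (purple) for Kcnj10, 8 satellite glia markers and 12 neuron markers, with bars of ± 1 SE and filled points at an adjusted p of at most 0.05. Kcnj10 lies at -0.75 and -0.97, farther from 0 than each of the 20 markers on both days.

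Kcnj13 encodes Kir7.1, an inward rectifier of low conductance known from epithelia. It was at 1.13, 0.57, 0.62 and 1.28 FPKM in sham. After TCI Kcnj13 was at 0.91, 0.62 and 0.72 FPKM on day 1, at 2.45, 3.35 and 2.72 FPKM on day 7 and at 2.3, 1.5, 1.45 and 2.56 FPKM on day 14. Every sample of days 7 and 14 was above every sham sample. Group means were 3.16 times sham on day 7 and 2.17 times on day 14, and on the log2(FPKM + 1) scale it rose by 1.03 ± 0.17 (limma, adjusted p = 0.00113) and 0.64 ± 0.15 (adjusted p = 0.0154). The day 14 call was lost with all 16 samples, with only the groups compared and without sham replicate 2 (adjusted p up to 0.0595). Kcnj13 lies within the span of Gigyf2 in RefSeq, and whether the counting used strand is not given in the sources used here, so its level is uncertain. Gigyf2 itself was at 9.01 ± 0.345 FPKM in sham, 8.60 ± 0.574 on day 7 and 7.81 ± 1.12 on day 14. Uncharacterized genes overlap Kcne3, Kcnj15, Kcnk13, Kcnk2, Kcnk6, Kcnq3 and Kcnq5 in the same way.

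Kcnj15 (Kir4.2) was at 0.50, 0.49, 0.32 and 0.55 FPKM in sham. After TCI Kcnj15 was at 0.27, 0.27 and 0.34 FPKM on day 1, 1.55, 1.81 and 0.93 FPKM on day 7 and 0.78, 0.69, 0.41 and 1.26 FPKM on day 14. Day 7 lay above sham in all samples and day 14 overlapped it. It rose by 0.71 ± 0.16 on the log2(FPKM + 1) scale on day 7 (limma, adjusted p = 0.00669). This call was lost under quantile normalization (adjusted p = 0.0729), 1 of the 21 alternatives in which Kcnj15 was tested. Kcnj15 reached 1 FPKM in 0 sham, 0 day 1, 2 day 7 and 1 day 14 samples, the fewest that the filter allows. Leaving out TCI day 7 replicate 1 or 2 or TCI day 14 replicate 4, or asking for a mean of at least 5 FPKM, removed it from the test. The day 14 value was 0.27 ± 0.14 (adjusted p = 0.237). The difference between the days, -0.45 ± 0.16, did not pass (adjusted p = 0.347).

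Kcnj3 encodes Kir3.1, a channel opened by G proteins. It was at 10.73, 13.08, 11.35 and 10.18 FPKM in sham, 9.46, 9.40 and 8.73 FPKM on day 1 and 8.69, 8.83 and 7.25 FPKM on day 7, where all samples lay below sham. It fell by 0.41 ± 0.12 on day 7 (limma, adjusted p = 0.0300). On day 14, with 9.92, 9.13, 6.83 and 10.48 FPKM, it overlapped sham at -0.30 ± 0.11 (adjusted p = 0.0884). The Kcnj3 call was lost without TCI day 7 replicate 1 or 4 or sham replicate 2 or 3 (adjusted p up to 0.124). The other 8 tested Kir genes did not pass against sham on any day, although quantile normalization and the median of ratios each gave 3 Kir genes lower on day 7, and 3 and 2 on day 14. Among them Kcnj11 (Kir6.2), the pore of ATP-sensitive channels, was at 3.92 ± 0.387 FPKM in sham, 3.68 ± 0.400 on day 7 and 3.67 ± 0.473 on day 14. Kcnj8 (Kir6.1), its counterpart in vessels, was at 1.49 ± 0.390, 1.53 ± 0.382 and 1.34 ± 0.193 FPKM.

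The K2P genes that passed against sham were higher. Other scalings kept their direction, but some lost part of these calls or gave other K2P genes as lower. Of 14 genes 11 were tested, and without further scaling of the FPKM values 3 rose and 0 fell on day 7 and 2 rose and 0 fell on day 14. On day 7 quantile normalization gave 1 higher and 2 lower, equal sums 3 and 1, and the median of ratios 3 and 2. On day 14 they gave 1 and 1, 1 and 0, and 1 and 1. Kcnk6, which encodes TWIK-2, was at 1.06, 1.28, 1.31 and 1.43 FPKM in sham. After TCI Kcnk6 was at 1.21, 1.26 and 1.36 FPKM on day 1, 3.11, 3.44 and 2.69 FPKM on day 7 and 2.70, 2.86, 1.5 and 2.43 FPKM on day 14. Day 1 lay within the sham range and all samples of days 7 and 14 were above it. Its group means were 2.43 and 1.87 times sham, with a rise of 0.84 ± 0.13 on day 7 (limma, adjusted p = 0.000877, the smallest of the family against sham) and 0.55 ± 0.12 on day 14 (adjusted p = 0.00919). TWIK-2 is known in macrophages, whose markers rose over the same days, and their part in this rise was not tested.

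Kcnk13 (THIK-1), a channel known from microglia, was at 0.27, 0.26, 0.43 and 0.44 FPKM in sham. After TCI Kcnk13 was at 0.37, 0.27 and 0.40 FPKM on day 1, 1.34, 1.04 and 0.76 FPKM on day 7 and 0.62, 1.34, 0.44 and 1.07 FPKM on day 14. It rose by 0.59 ± 0.16 on day 7 (limma, adjusted p = 0.0192), with no overlap. This call was lost in 6 of 24 alternatives, which were quantile normalization, the replicate block and leaving out TCI day 7 replicate 1 or 2 or sham replicate 1 or 2 (adjusted p up to 0.339). On day 14 the difference was 0.44 ± 0.15 (adjusted p = 0.0571) and 1 sample equalled the highest sham sample.

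Kcnk2 encodes TREK-1, a mechano- and heat-sensitive channel of sensory neurons. It was at 4.49, 5.27, 4.48 and 5.46 FPKM in sham. After TCI Kcnk2 was at 6.32, 5.63 and 4.28 FPKM on day 1, 7.19, 7.58 and 6.17 FPKM on day 7 and 7.37, 5.97, 7.02 and 6.05 FPKM on day 14. All samples of days 7 and 14 exceeded the highest sham sample, and it rose by 0.43 ± 0.11 (limma, adjusted p = 0.0198) and 0.36 ± 0.11 (adjusted p = 0.0371). The day 7 call was lost in 6 of 25 alternatives, which were quantile normalization, all 16 samples and leaving out TCI day 7 replicate 1 or 2 or sham replicate 1 or 3 (adjusted p up to 0.168). The day 14 call was lost in 10 of 25, among them all 3 other scalings, all 16 samples, no filter, and leaving out TCI day 14 replicate 1 or 3 or sham replicate 1, 2 or 3 (adjusted p up to 0.128). Kcnk1 (TWIK-1), the highest K2P gene, averaged 30.7 ± 1.32 FPKM in sham. Its TCI means were 34.5 ± 3.01 FPKM (day 1), 27.1 ± 1.26 FPKM (day 7) and 28.7 ± 3.29 FPKM (day 14). It passed only in day 7 against day 1, where it was lower by 0.33 ± 0.08 (adjusted p = 0.0239). This call was lost at least without TCI day 1 replicate 3 or 4 or TCI day 7 replicate 2 or 4. Kcnk18 (TRESK), a sensory neuron channel, differed from sham by 0.10 ± 0.10 on day 7 (adjusted p = 0.50) and by 0.16 ± 0.09 on day 14 (adjusted p = 0.268). For Kcnk4 (TRAAK) the 95% interval of the day 7 difference was -0.22 to 0.28.

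**Figure D3:**
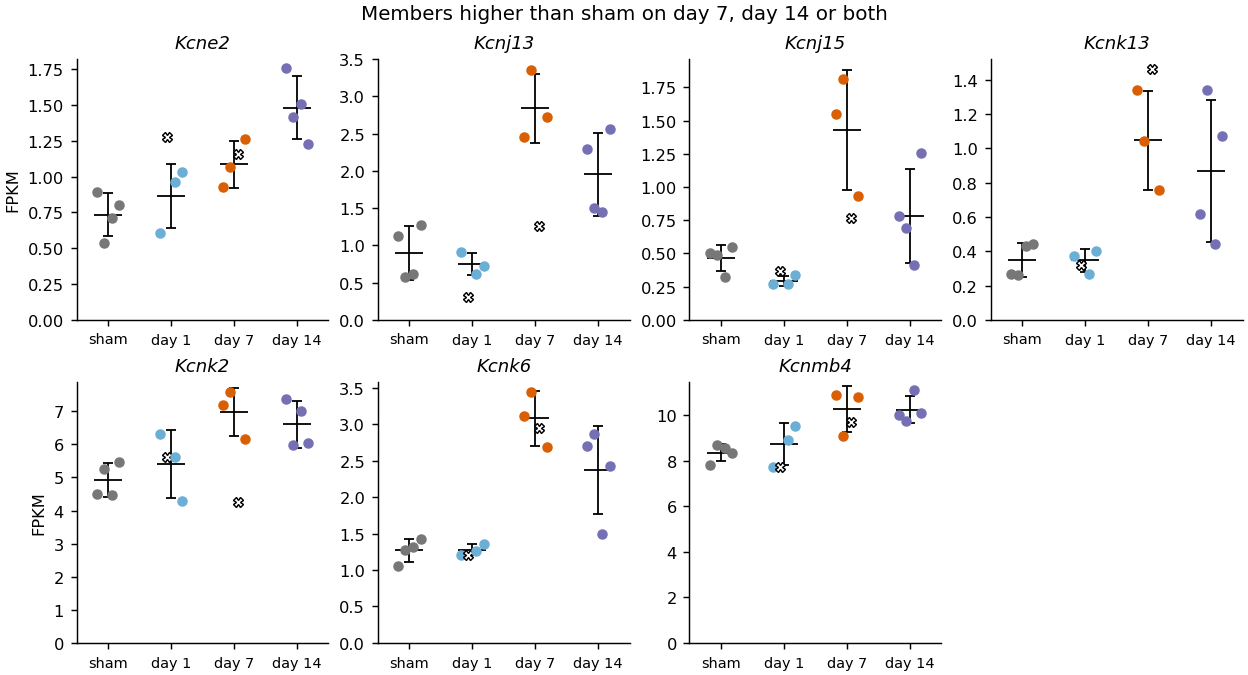
FPKM per sample of the 7 members higher than sham on day 7, day 14 or both; points are samples, lines and bars are the group mean ± SD over the 14 samples used, and crosses are the left-out day 1 replicate 2 and day 7 replicate 3. In the samples used, Kcne2, Kcnj13, Kcnk2, Kcnk6 and Kcnmb4 lie above all sham samples on both days, while 1 day 14 sample of Kcnj15 and 1 of Kcnk13 lie within or at the top of the sham range.

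Among Kv1 channels, which limit excitability along the axon, Kcna2 and Kcna6 fell and the other 4 tested genes did not pass against sham. Kcna2 (Kv1.2) was at 66.56, 73.25, 63.92 and 60.96 FPKM in sham. After TCI Kcna2 was at 62.87, 53.82 and 57.77 FPKM on day 1, 57.27, 54.79 and 46.34 FPKM on day 7 and 59.99, 52.65, 47.98 and 57.81 FPKM on day 14. All samples of days 7 and 14 lay below the lowest sham sample. The ratio to sham was 0.798 and 0.825, and the fall was 0.32 ± 0.09 on the log2(FPKM + 1) scale on day 7 (limma, adjusted p = 0.0283) and 0.27 ± 0.09 on day 14 (adjusted p = 0.0470). The day 7 call was lost in 4 of 25 alternatives, without TCI day 7 replicate 2 or 4 or sham replicate 1 or 2 (adjusted p up to 0.128). That of day 14 was lost in 13 of 25 (adjusted p up to 0.199). These were all 16 samples, only the groups compared, no trend, no filter, and leaving out any 1 day 1 sample, TCI day 7 replicate 2, TCI day 14 replicate 2 or 3, or sham replicate 1, 2 or 3. Kcna6 (Kv1.6) was at 24.48, 25.16, 26.15 and 26.36 FPKM in sham and 22.48, 23.46 and 22.46 FPKM on day 7, and it fell by 0.16 ± 0.05 (adjusted p = 0.0350). Its call was lost in 8 of 25 alternatives, with all 16 samples, with the replicate block and without any 1 day 7 sample or sham replicate 2, 3 or 4 (adjusted p up to 0.110). Day 1 samples of Kcna6, at 23.17, 22.67 and 22.41 FPKM, differed from sham by -0.16 ± 0.05 but did not pass (adjusted p = 0.793).

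Kcna1 (Kv1.1), the usual partner of Kv1.2, was at 84.37, 101.53, 83.48 and 83.12 FPKM in sham, 70.56, 75.78 and 46.22 FPKM on day 7 and 82.22, 77.48, 48.41 and 71.32 FPKM on day 14. Its groups did not overlap on either day, but 1 sample a day was far below the others. The differences of -0.48 ± 0.18 (limma, adjusted p = 0.0936) and -0.35 ± 0.17 (adjusted p = 0.185) did not pass. Kcna4 (Kv1.4), an inactivating subunit of small neurons, lay above sham on day 7, with 7.80, 7.86 and 8.70 FPKM against 6.69, 6.19, 7.07 and 7.48 FPKM. It passed against day 1, at 0.41 ± 0.09 higher (adjusted p = 0.00839), and not against sham (0.22 ± 0.08, adjusted p = 0.0822).

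Kv3 channels repolarize fast-firing neurons. Kcnc1 (Kv3.1) lay below sham without overlap on both days but did not pass, at -0.25 ± 0.11 on day 7 (limma, adjusted p = 0.124) and -0.25 ± 0.10 on day 14 (adjusted p = 0.101). For Kcnc4 (Kv3.4) the 95% interval of the day 7 difference was -0.21 to 0.24.

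KCNQ genes encode the M-current, a slow brake on firing, and both that passed were lower. Each of the other scalings gave 3 lower and 0 higher on day 7. Kcnq5 was at 13.76, 16.76, 16.82 and 16.72 FPKM in sham. After TCI Kcnq5 was at 14.85, 14.30 and 13.06 FPKM on day 1, 13.99, 13.22 and 12.14 FPKM on day 7 and 13.92, 12.40, 13.09 and 12.64 FPKM on day 14. Sham replicate 1 lay within the range of days 7 and 14, and the other sham samples lay above both. Kcnq5 fell by 0.27 ± 0.08 on day 7 (limma, adjusted p = 0.0267) and by 0.28 ± 0.07 on day 14 (adjusted p = 0.0186). Each call was lost in 7 of 25 alternatives, with adjusted p up to 0.110 and 0.170. Both were lost with 15 samples (only TCI day 7 replicate 3 left out) and without sham replicate 2, 3 or 4. That of day 7 was also lost with the replicate block and without TCI day 7 replicate 2 or 4, and that of day 14 with all 16 samples, only the groups compared and without TCI day 14 replicate 2.

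Kcnq3, a subunit of M-channels, was at 3.35, 3.15, 2.99 and 2.34 FPKM in sham and 1.98, 2.17 and 1.22 FPKM on day 7, with no overlap, and fell by 0.51 ± 0.16 (limma, adjusted p = 0.0458). This call was lost in 11 of 24 alternatives (adjusted p up to 0.194). They were a pseudocount of 0.1, no filter, and leaving out TCI day 1 replicate 3 or 4, TCI day 7 replicate 1 or 4, TCI day 14 replicate 1 or 4, or sham replicate 1, 2 or 3. On day 14 it was at 2.48, 2.35, 1.34 and 2.43 FPKM, overlapped sham and did not pass (-0.34 ± 0.15, adjusted p = 0.151).

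**Figure D4:**
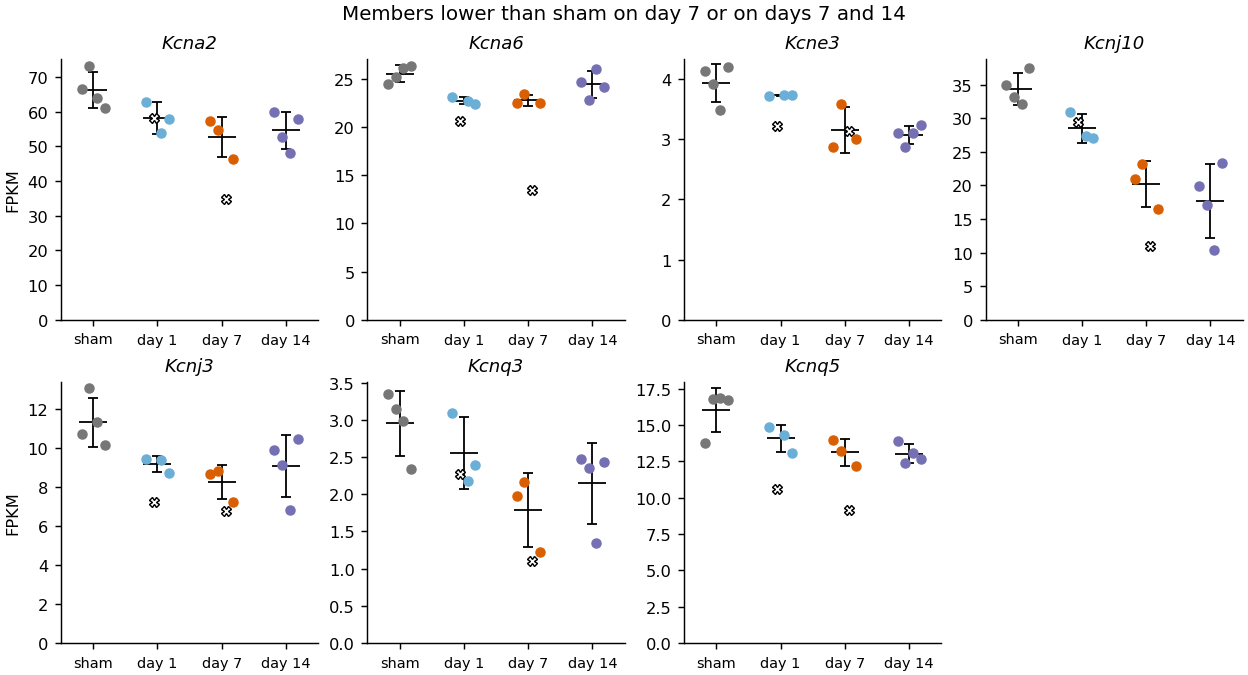
FPKM per sample of 7 of the 8 members lower than sham on day 7 or on days 7 and 14, drawn as for the higher members from an axis that starts at 0. Kcnj10 drops farthest relative to sham, to means of 20.2 and 17.7 FPKM from 34.4 FPKM, and the left-out day 7 replicate 3 is the lowest day 7 sample of all but Kcne3.

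Auxiliary subunits moved in both directions without further scaling, with 1 higher and 1 lower on day 7 and 2 higher and 1 lower on day 14. On day 7 the other scalings gave 0 higher and 3 or 4 lower, and on day 14 quantile normalization gave 0 higher and 2 lower. Kcnmb4, the neuronal beta subunit that slows the calcium-activated BK channel, was at 7.83, 8.70, 8.55 and 8.34 FPKM in sham, 10.89, 9.10 and 10.81 FPKM on day 7 and 10, 9.75, 11.11 and 10.11 FPKM on day 14, above sham in all samples of both days. It rose by 0.27 ± 0.08 (limma, adjusted p = 0.0301) and by 0.26 ± 0.07 (adjusted p = 0.0252). The day 7 call was lost in 8 of 25 alternatives, which were all 3 other scalings and leaving out TCI day 7 replicate 1 or 4 or sham replicate 1, 3 or 4 (adjusted p up to 0.20). That of day 14 was lost in 5 of 25, under quantile normalization, the median of ratios and without TCI day 14 replicate 3 or sham replicate 1 or 4 (adjusted p up to 0.108). Its pore partner Kcnma1 was at 4.64 ± 0.203 FPKM in sham, 3.74 ± 0.569 on day 7 and 3.89 ± 0.644 on day 14, and did not pass (-0.26 ± 0.11 on day 7, adjusted p = 0.139).

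Kcne2, a single-pass subunit that joins KCNQ and ERG channels, was at 0.89, 0.54, 0.71 and 0.80 FPKM in sham, 0.93, 1.07 and 1.26 FPKM on day 7 and 1.76, 1.42, 1.51 and 1.23 FPKM on day 14. All samples of both days were above sham. The rise on day 14 was 0.52 ± 0.10 (limma, adjusted p = 0.00614, and 0.0547 under quantile normalization), while the day 7 difference of 0.27 ± 0.11 did not pass (adjusted p = 0.123). Kcne3, of the same kind, was at 4.14, 3.91, 3.49 and 4.20 FPKM in sham, 2.87, 3.59 and 3.01 FPKM on day 7 and 3.10, 2.87, 3.11 and 3.23 FPKM on day 14. It overlapped sham on day 7 and not on day 14, and fell by 0.25 ± 0.07 (adjusted p = 0.0327) and 0.27 ± 0.07 (adjusted p = 0.0173). The day 7 call was lost in 8 of 24 alternatives, with only the groups compared, no filter, the replicate block and without TCI day 7 replicate 1 or 4 or sham replicate 1, 2 or 4 (adjusted p up to 0.139). That of day 14 was lost in 3 of 24, with only the groups compared and without sham replicate 1 or 4 (adjusted p up to 0.0562). Kcnab2 was at 242 ± 6.91 FPKM on day 7 (-0.07 ± 0.06, adjusted p = 0.436) and 256 ± 24.7 FPKM on day 14, and did not pass.

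Without further scaling, 0 members of 5 subfamilies passed against sham on any day. They were the Kv2 genes (2 of 2 tested), the Kv4 genes (2 of 3), the silent Kv subunits that work only within channels of other Kv subunits (8 of 10), the EAG, ERG and ELK genes (5 of 8) and the calcium- or sodium-activated genes (7 of 8). On day 7 quantile normalization gave 4 EAG, ERG and ELK genes, 2 Kv2 genes, 2 silent subunits and 2 calcium- or sodium-activated genes lower. Equal sums gave 2 EAG, ERG and ELK genes and 1 Kv4 gene lower, and the median of ratios 2 EAG, ERG and ELK genes. On day 14 only quantile normalization gave calls among them, with 1 EAG, ERG and ELK gene and 2 calcium- or sodium-activated genes lower. On day 7 an unadjusted p under 0.05 was reached by 6 of their 24 tested members, or 25%, with adjusted p-values in limma between 0.0591 and 0.160. The share over all genes was 31.2%. It includes genes that passed, while these subfamilies were picked for having none, so the shares cannot be compared. Among the 6 members were Kcng2, at 0.52 ± 0.17, Kcnh2 (ERG1), at -0.15 ± 0.05, Kcnh7, at -0.24 ± 0.08, Kcnma1, given above, and Kcnn4, at 0.49 ± 0.23. Kcng2 and Kcnh7 were named after their values were seen. Kcnn4 encodes KCa3.1, a channel of T cells and macrophages, and was at 6.46, 9.04, 4.57 and 7.08 FPKM in sham, 10.25, 9.90 and 9.07 FPKM on day 7 and 6.18, 10.35, 4.46 and 6.52 FPKM on day 14. Day 7 was above sham in all samples and day 14 overlapped it.

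Kcnd1 (Kv4.1) and Kcnd3 (Kv4.3), A-type channels of sensory neurons, differed from sham by -0.12 ± 0.06 and -0.01 ± 0.07 on day 7. The silent subunits Kcns1 and Kcns3 differed by -0.05 ± 0.07 and -0.09 ± 0.08. Kcnt1 (Slack), a sodium-activated channel, was at 16.8 ± 1.09 FPKM in sham and 19.1 ± 1.46 FPKM on day 14 (0.17 ± 0.06, limma, adjusted p = 0.0922). It passed only in day 14 against day 1, at 0.26 ± 0.07 higher (adjusted p = 0.0386). This call was lost at least with only the groups compared and without any 1 day 1 sample.

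Between the TCI days, 0 members passed in day 14 against day 7, where 0.00713% of all genes were higher and 0.0927% lower. At an unadjusted p under 0.05 there were 7 members, or 9.59% beside 9.96% of all genes, and the smallest adjusted p (limma) was 0.339, for Kcnv1, a silent subunit named after its value was seen, at -0.28 ± 0.10. In day 7 against day 1, 5 members were higher (Kcna4, Kcnj13, Kcnj15, Kcnk13 and Kcnk6) and 2 lower (Kcnk1 among them), with 9.02% and 1.42% of all genes. In day 14 against day 1, 4 were higher (Kcne2, Kcnj13, Kcnk6 and Kcnt1) and 1 lower (Kcnj10), with 5.9% and 1.06% of all genes. Each of these calls of day 14 against day 1 was lost with only the groups compared and without any 1 day 1 sample. Of the 7 members higher against sham, 4 passed on both days, 2 on day 7 alone and 1 on day 14 alone. Of the 8 lower, 5 passed on both days and 3 on day 7 alone, but 0 differed between the days at the adjusted threshold.

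Genes whose products hold potassium channels in place or tune them were lower where they passed. From 34 such partners 30 were tested, and 8 were lower and 0 higher on day 7 and 3 lower and 0 higher on day 14, beside the 3.45% and 3.21% of all genes called lower. With quantile normalization, equal sums and the median of ratios, 15, 13 and 16 were lower on day 7 and 7, 8 and 7 on day 14, and 0 were higher. Adam22, a partner of Kv1 channels along the axon, fell by 0.28 ± 0.04 on day 7 (limma, adjusted p = 0.000830) and by 0.20 ± 0.04 on day 14 (adjusted p = 0.00503). Cntnap2 (Caspr2), which clusters Kv1 channels beside the nodes, fell by 0.40 ± 0.09 on day 7 (adjusted p = 0.00864), and Epb41l3, its cytoskeletal link, by 0.21 ± 0.04 (adjusted p = 0.00177). Amigo1, a partner of Kv2 channels, fell by 0.21 ± 0.06 (adjusted p = 0.0311) and Dpp6, a partner of Kv4 channels, by 0.19 ± 0.06 (adjusted p = 0.0318). The others lower on day 7 were Adam23, Dlg2 and Lgi3, and those on day 14 were Adam22, Dlg2 and Snx27. The median of the 30 genes was -0.13 on day 7 and -0.09 on day 14, and that of the 12 neuron markers was -0.21 and -0.15.

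The study names 10 members among its ion channel genes, chosen on these same samples, so that their values are not independent evidence. Of these, Kcnj13, Kcnj15, Kcnk6 and Kcnk13 are described above. The other 6 were below 1 FPKM in all group means and were not tested. Kcnj16 (Kir5.1), the partner of Kir4.1, was at 0.08, 0.11, 0.09 and 0.47 FPKM in sham, 0.54, 0.71 and 0.79 FPKM on day 7 and 0.22, 0.16, 0.17 and 0.33 FPKM on day 14. Sham replicate 4 stood apart from the other sham samples, and all day 7 samples lay above it. Kcnj2 (Kir2.1) was at 0.497 ± 0.111 FPKM in sham and 0.783 ± 0.127 on day 7. Kcna7 (Kv1.7) was at 0.117 ± 0.021 and 0.10 ± 0.026 FPKM. Kcnk15, Kcns2 and Kcnu1 had group means of at most 0.0867 FPKM, and each was listed at 0 in some sample. Without the filter on low values, Kcnj16 (0.51 ± 0.10, limma, adjusted p = 0.00550) and the BK subunit Kcnmb1 (0.21 ± 0.05, adjusted p = 0.0142) passed as higher and Kcnd2 (-0.21 ± 0.06, adjusted p = 0.0455) as lower on day 7 among the 21 low members, and 0 passed on days 1 and 14. Kcnmb1 and Kcnd2 were named after their values were seen.

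The left-out TCI day 7 replicate 3 had high levels of skeletal muscle markers, and its values are given apart. Its 16 skeletal muscle markers summed to 23398 FPKM, against 15.9 to 21.1 in the other day 7 samples and 14.7 to 569 in sham, where the highest was sham replicate 4 and the next 15.6. The 12 neuron markers had a median ratio of 0.674 to the other day 7 samples, the 73 members 0.694 and all tested genes 0.896. Of the 73 members, 61 (83.6%) lay below the lowest other day 7 sample, beside 51.6% of all tested genes. Above the highest lay 3569 of the 14017 tested genes with a ratio, and 4 of the members. These 4 were Kcnj11, Kcnj12 (Kir2.2), Kcnj8 and Kcnk13. Kcnj11 was at 20.32 FPKM against 3.41 to 4.14 in the other day 7 samples, and Kcnj12, named after its value was seen, at 17.80 against 9.41 to 10.99. Kcnj8 was at 2.47 against 1.28 to 1.97 and Kcnk13 at 1.46 against 0.76 to 1.34. Outside the 73, Kcna7 was at 16.01 FPKM against 0.08 to 0.13 and Kcnj2 at 3.05 against 0.64 to 0.88. Kcnj10 was at 11.03 FPKM and Kcnk6 at 2.95 FPKM. The left-out TCI day 1 replicate 2 had a median ratio of 0.940 to the other day 1 samples over the members and 1.55 over the 8 Schwann cell markers.

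**Figure D5:**
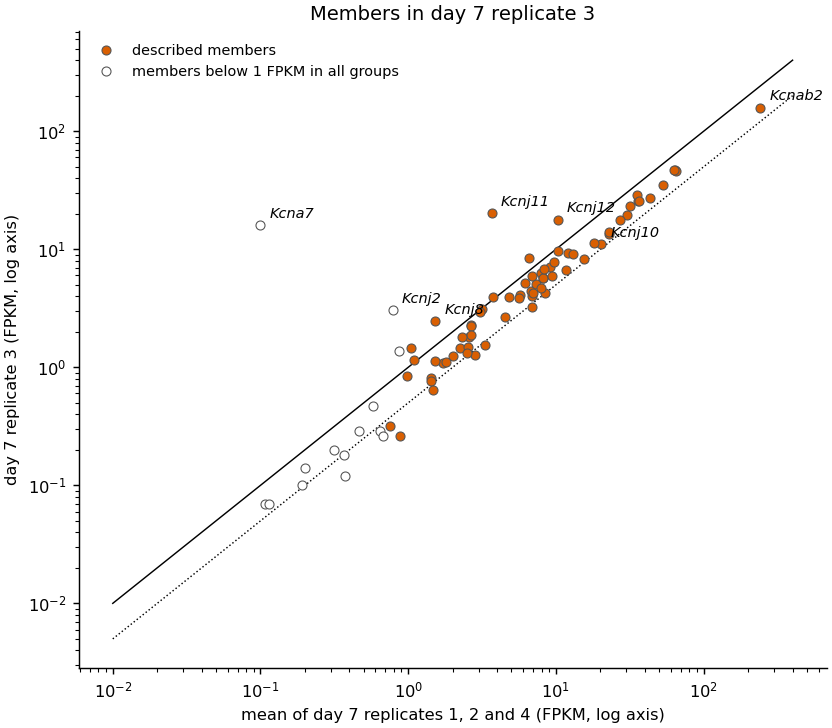
FPKM of each member reported here in TCI day 7 replicate 3 (vertical) against the mean of the other day 7 samples (horizontal), both log axes, for members above 0 in both; the solid line marks equal values and the dotted line 0.5 times the mean. The 73 described members have a median ratio of 0.694, while Kcna7, Kcnj2, Kcnj8, Kcnj11, Kcnj12 and Kcnk13 are among those above the solid line.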

How the data were processed

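The authors removed low-quality and adaptor reads, mapped the rest with HISAT and Bowtie2, estimated levels with RSEM and deposited FPKM per gene for each of the 16 samples (the submitters' processing notes name Bowtie2 and CASAVA 1.4). The methods name a BGISEQ-500 sequencer and the labels an Illumina one. The genome build is not given in the sources used here. FPKM carries no read totals, so the depth behind each value is unknown and counting intervals are not given. Genes that reached 1 FPKM in 3 or more of 14 samples entered, as log2(FPKM + 1), 1 model of all 4 groups (limma 3.58.1 with intensity trend, R 4.3.3), with Benjamini-Hochberg adjustment over 14023 genes and a threshold of 0.05. Fold changes on this scale understate low genes. The p-values set a difference of group means against the spread between samples within the groups. The fit was tested on simulated data. Tables and figures used pandas 2.3.3 and matplotlib 3.10.9.

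Members were named where they passed against sham or between days 7 and 14, led their subfamily, stood in lists of sensory neuron or non-neuronal members, or were listed by the study. The members, lists and tests were chosen with earlier results of these data known. RefSeq (GRCr8) gave the neighbours of all 94 members and promoters of 63. Values of 3 members are not reported here and not drawn. Alternatives were other sample sets, scalings, filters, a pseudocount of 0.1, no trend, a replicate block, the study's cut-offs and each sample left out.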

Additional observations from a re-analysis of the deposited data

Results flagged for a closer look

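Values of single samples that stood far from the rest of their group were found in 15 cases among 180 groups of 4 samples, where chance alone gives about 1 in 20. Of these, 5 were in TCI day 7 replicate 3, 3 in TCI day 14 replicate 3, 2 in TCI day 1 replicate 2, 2 each in sham replicates 1 and 2 and 1 in sham replicate 4. All values are FPKM.

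In TCI day 7 replicate 3, Kcna6 was at 13.52 (others 22.46 to 23.46), Kcnab2 at 158.26 (236.37 to 249.99), Kcnd3 at 8.34 (15.04 to 15.83) and Kcnh2 at 27.29 (41.45 to 44.28), all lowest, and Kcnj11 was highest at 20.32 (3.41 to 4.14). In the same sample, which enters no comparison, Kcna7 was at 16.01 against at most 0.14 in sham, and Kcnj2 at 3.05 against at most 0.59. In TCI day 14 replicate 3, Kcnab2 was highest at 292.59 (239.72 to 245.85), Kcnh2 highest at 49.56 (45.22 to 45.49) and Kcnq3 lowest at 1.34 (2.35 to 2.48). In TCI day 1 replicate 2, Kcne3 was lowest at 3.22 (3.72 to 3.73) and Kcnj11 highest at 4.71 (3.87 to 3.99). Among sham samples, Kcna1 at 101.53 (83.12 to 84.37) and Kcnc1 at 12.65 (9.18 to 9.73) were highest in replicate 2, Kcnn2 was highest at 4.57 (3.99 to 4.05) and Kcnq5 lowest at 13.76 (16.72 to 16.82) in replicate 1, and Kcns1 was highest at 40.04 (37.26 to 37.44) in replicate 4.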

How the results depend on the processing

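Counts of members that passed are given in the order higher, lower. Against sham, 0 passed on day 1 under every alternative, and likewise for day 14 against day 7. Day 7 against sham (6, 8) gave 2 and 27 with quantile normalization, 15 lower with equal sums and 17 lower with the median of ratios, and 2 higher with a mean of at least 5 FPKM. Day 14 against sham (5, 5) gave 3 and 2 with all 16 samples, 3 lower with 15 samples, 2 lower with only the groups compared, 3 lower without the trend or the filter, 2 and 15 with quantile normalization, 3 and 8 with the median of ratios and 2 higher with a mean of at least 5 FPKM. Day 7 against day 1 (5, 2) gave 4 lower with all 16 samples or only the groups compared, 1 lower with 15 samples, 3 and 11 with quantile normalization and 1 higher with a mean of at least 5 FPKM. Day 14 against day 1 (4, 1) gave 2 and 0 with all 16 samples, 2 lower with 15 samples, 0 and 0 with only the groups compared, 0 lower without the trend or the filter, 2 and 4 with quantile normalization, 2 and 0 with equal sums, 2 and 2 with the median of ratios and 1 and 0 with a mean of at least 5 FPKM. The study's cut-offs, applied on the log2(FPKM + 1) scale, gave 0 throughout. Apart from the smaller sample and gene sets and the stricter cut-offs, the cause was not tested. Shares of all genes under an alternative are given above only against sham, for the scalings and the study's cut-offs. Without such a share, the other counts cannot be read as particular to the members.

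With each sample left out in turn, day 7 against sham gave 3 to 8 higher (3 without TCI day 7 replicate 1, replicate 2 or sham replicate 1) and 1 to 12 lower (1 without TCI day 7 replicate 4, 2 without sham replicate 2, 4 without sham replicate 3, 5 without TCI day 7 replicate 1 or sham replicate 1). Day 14 against sham gave 3 to 5 higher (3 without sham replicate 1 or 2) and 2 to 6 lower (2 without TCI day 14 replicate 2 or any 1 sham sample, 3 without TCI day 1 replicate 4 or TCI day 7 replicate 2). Day 7 against day 1 gave 3 to 5 higher (3 without TCI day 7 replicate 1 or 2) and 0 to 3 lower (0 without TCI day 1 replicate 3 or 4 or TCI day 7 replicate 2 or 4). Day 14 against day 1 gave 0 to 5 higher (0 without any 1 day 1 sample, 1 without TCI day 14 replicate 1, 2 without TCI day 7 replicate 1, TCI day 14 replicate 2 or sham replicate 1 or 3) and 0 to 2 lower (2 without TCI day 14 replicate 4, and 0 without TCI day 14 replicate 2, TCI day 7 replicate 1 or 2, any 1 day 1 or any 1 sham sample).

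Replicate numbers did not pair the samples, since deviations of same-numbered samples had a median correlation of 0.00257 (-0.0952 to 0.269). A replicate block gave 6 and 7 for day 7 and 5 and 4 for day 14 against sham, 1 lower for day 7 against day 1, and 1 and 0 for day 14 against day 1. No named call changed direction under the alternatives tried. The depth behind the FPKM values is unknown.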
